A study of Mus musculus with 4 samples.

Results

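The genes described here are the FOXO transcription factor genes Foxo1, Foxo3 and Foxo4 and the direct FOXO target genes Sesn3, Irs2, Fbxo32, Bcl6 and Ccng2. These 8 genes were listed by name and then looked up among 22180 genes that had a probe set with exactly 1 gene symbol on an Affymetrix Mouse Gene 2.0 ST array. The rule used no measured value, but the list was drawn up with earlier results of these data known. RNA came from bone marrow cells of 2-month-old mice sorted as Lin- c-Kit+ Sca-1+ CD34-, a gate that enriches haematopoietic stem cells and that the labels call SLAM. There was 1 array for mice labelled Fancd2 knockout (Fancd2KO), 1 for Foxo3a knockout (Foxo3aKO), 1 for the Fancd2 and Foxo3a double knockout (DKO) and 1 for wild type (WT). The alleles, the cells in which they were deleted, the sex and the number of mice per array were not given in the labels. No genotype was replicated, so no difference below has a replicate check, and no test between genotypes was possible.

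FOXO proteins are forkhead transcription factors at the end of the insulin and growth factor pathway. When AKT is active it phosphorylates them, 14-3-3 proteins bind them, and they leave the nucleus. When growth factor signalling is low they enter the nucleus and switch on genes for cell cycle arrest, oxidative stress resistance, autophagy and energy saving. In haematopoietic stem cells they are known for keeping the cells quiescent and their reactive oxygen low. Foxo3 encodes the protein that the labels call Foxo3a. Because FOXO activity is set largely by phosphorylation and location, messenger levels of the factors do not report it, and target genes are commonly read in their place.

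FOXO proteins bind the FOXO binding element GTAAACA and, more weakly, the insulin response element CAAAACA. Both were searched on both strands in RefSeq promoters of build GRCm38.p6, which run from 250 bases before to 50 after a gene's start, and the 2 motifs of 7 bases do not overlap. Of the 8 genes, 6 had a promoter in the table, Bcl6 with a pair, which made 7 promoters. Fbxo32 and Foxo4 were not in it. The FOXO binding element was in 0 of the 7 and in 3.65% of all 32851 promoters. The insulin response element was in 2 of the 7, those of Irs2 and Ccng2, and in 6.28% of all promoters. The promoters of Irs2, Ccng2 and Sesn3 are shown because Irs2 and Ccng2 hold this element, while Sesn3, a target lower in all 3 knockouts, holds neither. Capitals mark the insulin response element, which is on the opposite strand in Irs2, 37 to 31 bases before the start, and on the gene's own strand in Ccng2, 16 to 10 bases before it.
Irs2 (chr8:11008880-11009179, minus strand): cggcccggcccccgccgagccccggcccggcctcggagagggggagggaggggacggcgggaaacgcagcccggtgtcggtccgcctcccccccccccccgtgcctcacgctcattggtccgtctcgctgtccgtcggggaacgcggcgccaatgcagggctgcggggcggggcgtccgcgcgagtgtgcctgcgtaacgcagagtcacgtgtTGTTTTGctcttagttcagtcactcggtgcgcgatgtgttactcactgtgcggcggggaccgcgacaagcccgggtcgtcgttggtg
Ccng2 (chr5:93267323-93267622, plus strand): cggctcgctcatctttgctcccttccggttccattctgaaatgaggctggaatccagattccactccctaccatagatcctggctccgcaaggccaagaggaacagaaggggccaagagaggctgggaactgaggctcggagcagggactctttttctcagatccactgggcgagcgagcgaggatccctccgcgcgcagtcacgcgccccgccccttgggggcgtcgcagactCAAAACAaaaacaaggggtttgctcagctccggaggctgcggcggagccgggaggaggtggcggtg
Sesn3 (chr9:14276051-14276350, plus strand): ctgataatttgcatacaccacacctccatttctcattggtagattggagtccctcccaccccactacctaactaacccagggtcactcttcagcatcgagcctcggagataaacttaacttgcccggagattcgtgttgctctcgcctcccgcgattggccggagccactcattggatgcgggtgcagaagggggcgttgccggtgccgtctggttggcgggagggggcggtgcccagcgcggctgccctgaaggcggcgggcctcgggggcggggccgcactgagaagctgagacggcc
A match describes these letters only, and its absence from this window says nothing about binding. G and C made up 72.0% of the Irs2 promoter, 62.0% of that of Ccng2 and 62.7% of that of Sesn3, against a median of 52.7% over all promoters.

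Signals are the authors' log2 values, and levels of different genes are not set against each other because probes differ in brightness. A gene counted as above the floor when its highest value on the 4 arrays reached 5.51 log2, the median of all gene values, which 12041 genes did, all 8 genes of the list among them. A difference is called when it is at least 1.5-fold, a log2 difference of 0.58 or more in size. Error at the level of probes was gauged from 544 genes with a pair of probe sets, by how much both disagreed about the same difference. This disagreement takes in the error of both probe sets, not of 1 alone. It holds no spread between arrays or mice, which could not be estimated, so a difference past it may still lie within that spread. In 95% of these genes the disagreement about a difference from WT stayed under 0.91 log2 for Fancd2KO, 0.91 for Foxo3aKO and 0.94 for DKO. Background probe sets with at least 22 G or C among 25 bases had medians of 6.58 log2 in Fancd2KO, 6.15 in Foxo3aKO, 6.85 in DKO and 6.65 in WT, and those with at most 10 had medians from 2.01 to 2.12. With 12 G or C the background was 2.63 log2 in Fancd2KO, 2.52 in Foxo3aKO, 2.64 in DKO and 2.54 in WT. The base composition of each gene's own probes was not known, so which background applies to a gene is not known either. Fancd2, the other deleted gene, stood at 6.08 log2 in Fancd2KO, 6.67 in Foxo3aKO and 5.84 in DKO, against 6.56 in WT. Its differences from WT of -0.48 in Fancd2KO and -0.72 in DKO were inside the probe set disagreement. It exceeded the G and C rich background in Foxo3aKO only. Its deleted exons and those under its probe set are not given, so the labels cannot be checked by it.

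The sorted cells carried the Kit signal of their gate, at 10.41 log2 in Fancd2KO, 10.57 in Foxo3aKO and 10.43 in DKO, against 10.67 in WT. Sca-1 is encoded by Ly6a, which had no probe set with 1 symbol and was not used here. Cd34, whose protein the gate required to be absent, had strong signal on every array, with 10.28 log2 in Fancd2KO, 9.67 in Foxo3aKO and 10.36 in DKO, against 10.79 in WT. The neutrophil genes S100a8 and S100a9 lay at 12.38 log2 or above on all 4 arrays, although lineage-positive cells were gated out.

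The factor genes differed little between genotypes. Foxo3, the gene labelled as deleted, had 6.72 log2 in Fancd2KO, 6.64 in Foxo3aKO and 6.51 in DKO, against 6.62 in WT. The arrays labelled Foxo3aKO and DKO thus differed from WT by only 0.02 and -0.10 log2. Neither the deleted exons nor the exons under the probe set are given, so the labels cannot be checked by it, and the genotype names used are those of the labels. It also exceeded the G and C rich background on only 2 of the 4 arrays, Fancd2KO and Foxo3aKO.

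Foxo1, the FOXO gene best known for insulin responses and lymphocyte development, was read by 2 probe sets. The brighter one had 7.68 log2 in Fancd2KO, 7.46 in Foxo3aKO and 7.24 in DKO, against 7.33 in WT, so Fancd2KO was highest and DKO lowest. The dimmer one had 5.78, 5.43 and 5.86 log2 in Fancd2KO, Foxo3aKO and DKO, against 5.84 in WT, all below the G and C rich background. Their differences from WT had opposite signs in each knockout, for instance 0.13 and -0.41 in Foxo3aKO, so no direction can be given for Foxo1. Foxo4, an X-linked relative, had 6.58 log2 in Fancd2KO, 6.33 in Foxo3aKO and 6.48 in DKO, against 6.47 in WT, a span of 0.25 over all 4 arrays. None of the 3 factor genes was called in any knockout, and the median difference over the 3 was 0.11 in Fancd2KO, 0.02 in Foxo3aKO and -0.09 in DKO, against -0.01, -0.04 and -0.03 over all genes.

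**Figure D1:**
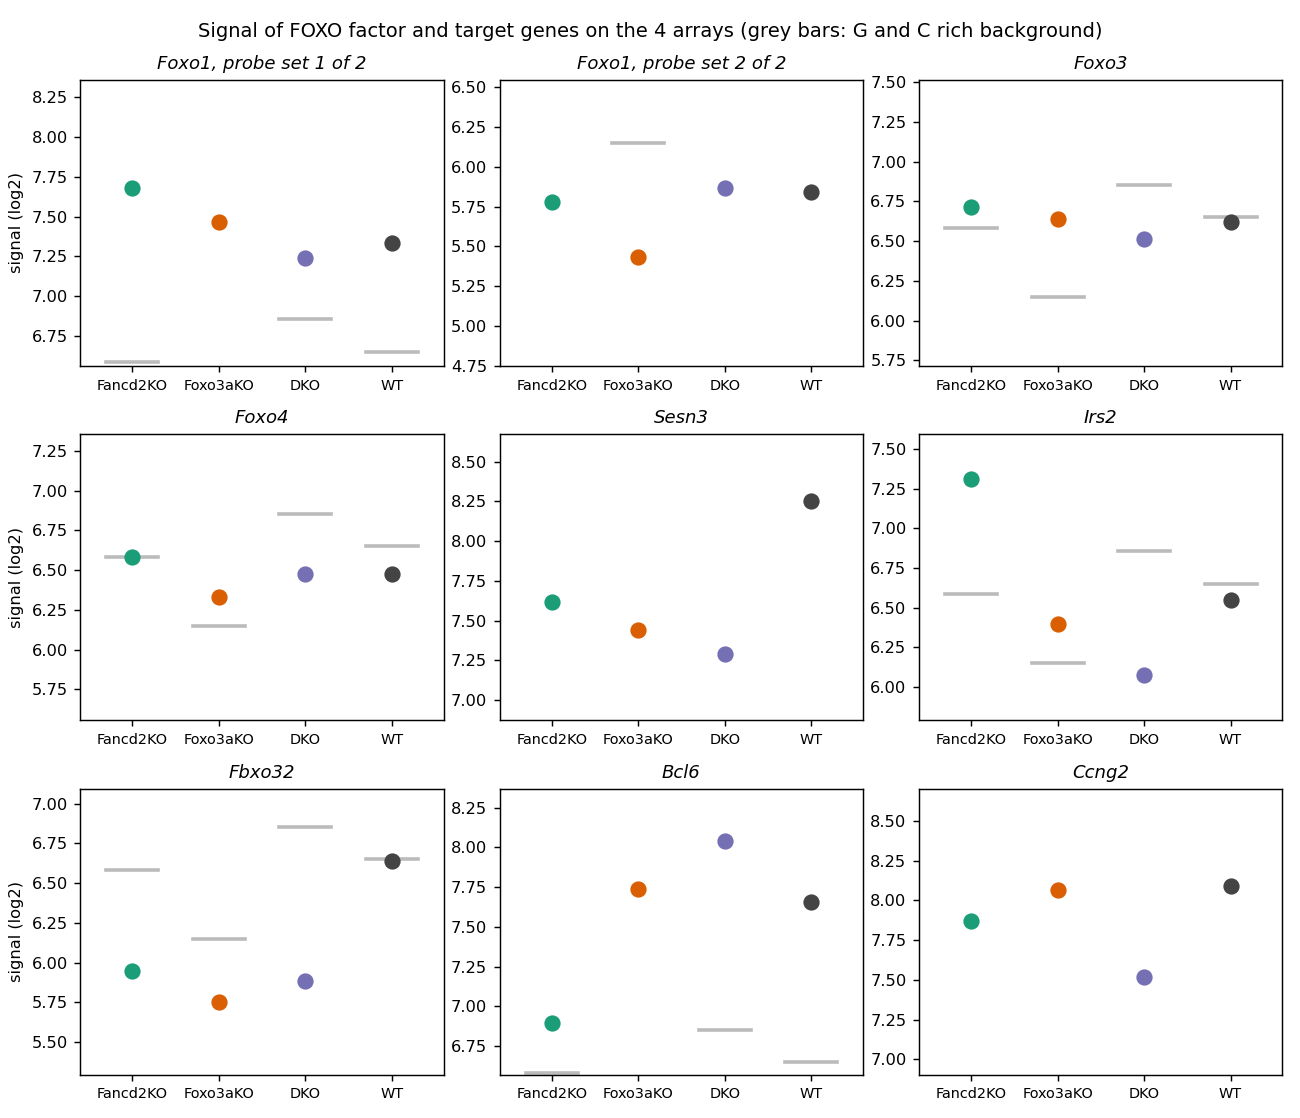
Signal in log2 (y axis, each panel spanning the same range of 1.8 log2) of every probe set of the 8 genes on the Fancd2KO, Foxo3aKO, DKO and WT arrays (x axis), 1 point per array; grey bars give the median of the G and C rich background on that array where it falls within the panel. Sesn3 and Fbxo32 are highest in WT, Irs2 is highest in Fancd2KO at 7.31, and Bcl6 is lowest in Fancd2KO at 6.90.

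Among the targets, Sesn3 and Fbxo32 were lower in all 3 knockouts. Sesn3 encodes sestrin 3, which restrains mTORC1 signalling and limits reactive oxygen. It had 7.62 log2 in Fancd2KO, 7.44 in Foxo3aKO and 7.29 in DKO, against 8.25 in WT. Each knockout lay below WT, by -0.63, -0.81 and -0.96 log2, and DKO, at 0.51 times the WT signal, was the lowest. The DKO difference was just past the 0.94 limit of probe set disagreement, and 1.94% of all genes had a lower one. With quantile normalisation or cyclic loess the DKO difference was -0.91, inside the 0.94 limit. The knockouts among themselves were closer, with DKO at -0.33 against Fancd2KO and -0.15 against Foxo3aKO, both well inside the probe set disagreement.

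Fbxo32 encodes atrogin-1, the substrate-binding F-box protein of a ubiquitin ligase known from muscle wasting. Its signal was 5.95 log2 in Fancd2KO, 5.75 in Foxo3aKO and 5.88 in DKO, against 6.64 in WT. All 3 knockouts lay below WT, by -0.69, -0.89 and -0.75 log2, and within 0.20 log2 of each other. Fbxo32 did not reach the G and C rich background on any array, and all 3 differences were inside the probe set disagreement. Sesn3 and Fbxo32 were the 2 of 5 targets called lower in every knockout, a pattern that 173 of the 12041 genes showed, or 1.44%. Of all genes ranked by distance from Sesn3 over the 4 arrays, Fbxo32 was in place 54, and Sesn3 was in place 68 from Fbxo32, while Ccng2 was next among the targets at places 1707 and 4048.

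Ccng2 encodes cyclin G2, an unusual cyclin that goes with cell cycle arrest. It had 7.87 log2 in Fancd2KO, 8.06 in Foxo3aKO and 7.52 in DKO, against 8.09 in WT. DKO was lowest, by -0.57 from WT, just short of the call, by -0.55 from Foxo3aKO and by -0.35 from Fancd2KO. Fancd2KO lay between, at -0.22 from WT, and Foxo3aKO was level with WT at -0.02.

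Irs2 encodes an adaptor that couples the insulin and IGF receptors to PI3K, and its induction by FOXO forms a feedback loop on the pathway. Its probe set had 7.31 log2 in Fancd2KO, 6.40 in Foxo3aKO and 6.07 in DKO, against 6.55 in WT. Fancd2KO was the highest array, called higher by 0.76 log2, and DKO the lowest at -0.47, with Foxo3aKO close to WT at -0.15. DKO was 0.43 times Fancd2KO, a log2 difference of -1.23, and 0.81% of all genes had a lower one. The limit of probe set disagreement for this comparison was 0.97, and variation between mice is not part of it. In DKO and WT the Irs2 signal did not reach the G and C rich background. A second probe set with Irs2 carried 2 symbols and was left out under the rule.

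Bcl6 encodes a transcriptional repressor best known from germinal centre B cells, and FOXO factors induce it when growth signals fall. It had 6.90 log2 in Fancd2KO, 7.74 in Foxo3aKO and 8.04 in DKO, against 7.66 in WT. Fancd2KO alone was low, by -0.76 from WT, while Foxo3aKO was near WT at 0.08 and DKO was 0.39 higher. DKO exceeded Fancd2KO by 1.15 log2, or 2.21-fold, and 1.06% of all genes had a higher difference. Bcl6 and Irs2 were thus at opposite ends, Bcl6 lowest and Irs2 highest in Fancd2KO.

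**Figure D2:**
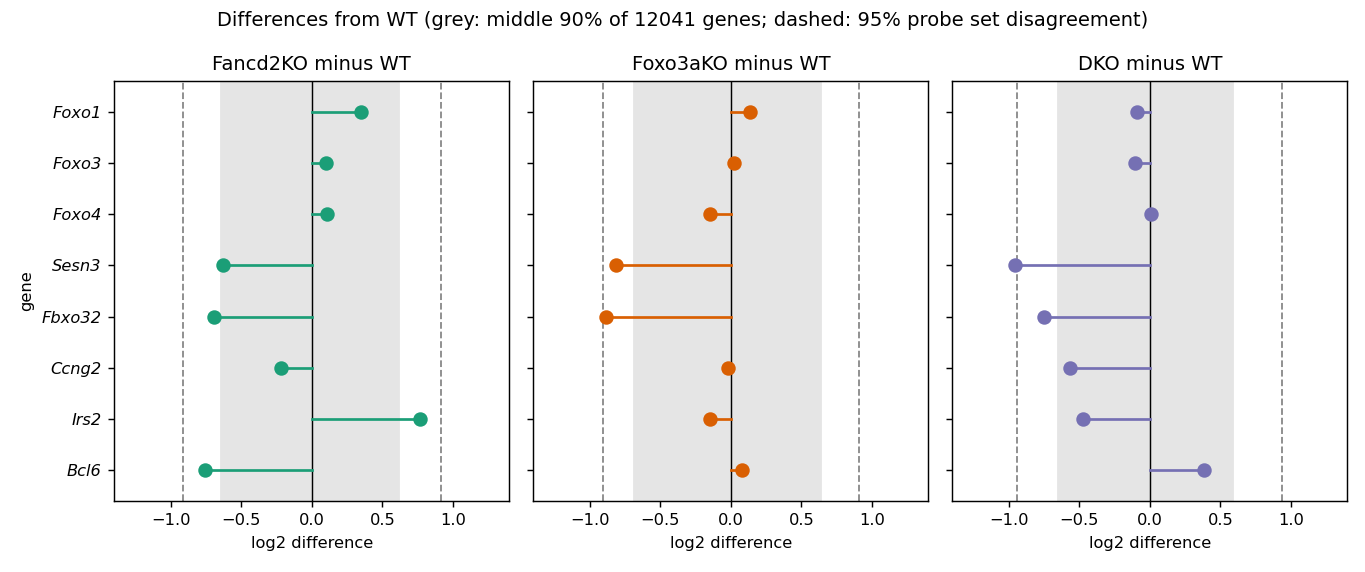
Log2 difference from WT (x axis) of the 8 genes (y axis) on the Fancd2KO, Foxo3aKO and DKO arrays, 1 panel each, with grey bands for the middle 90% of 12041 genes and dashed lines at the 95% disagreement of probe sets. Sesn3 and Fbxo32 lie left of or at the edge of the band in all 3 panels, and Sesn3 in DKO, at -0.96, is the point past a dashed line.

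Counted together, 3 of the 5 targets (Sesn3, Fbxo32 and Bcl6) were called lower in Fancd2KO, where 6.29% of all genes were, and 1 of 5 (Irs2) was called higher, where 5.51% were. In Foxo3aKO 2 of 5 (Sesn3 and Fbxo32) were called lower, against 7.62% of all genes, and 0 of 5 higher, against 5.85%. In DKO the same 2 were called lower, against 6.3% of all genes, and 0 of 5 higher, against 5.05%. The median difference of the 5 targets was -0.63 in Fancd2KO, -0.15 in Foxo3aKO and -0.57 in DKO. The 3 comparisons share the WT array, so an error of that array would move all of them alike. At 2-fold no target was called in either direction in any knockout; the shares of all genes were 1.35% lower and 1.68% higher in Fancd2KO, 1.3% and 1.81% in Foxo3aKO, and 1.72% and 1.37% in DKO.

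The 4 genotypes also give the loss of each gene with the other present or lost, as pairs of differences that share no array. For Foxo3a loss, Sesn3 differed by -0.33 in DKO minus Fancd2KO and by -0.81 in Foxo3aKO minus WT. Fbxo32 differed by -0.06 with Fancd2 lost and by -0.89 with Fancd2 present, so DKO lay close to Fancd2KO. For Irs2 the order was the other way, with -1.23 where Fancd2 was lost and -0.15 where it was present. Bcl6 differed by 1.15 with Fancd2 lost and 0.08 with it present, and Ccng2 by -0.35 and -0.02. In DKO minus Fancd2KO, 1 of 5 targets (Irs2) was called lower, against 6.1% of all genes, and 1 (Bcl6) higher, against 5.33%.

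For Fancd2 loss, Sesn3 differed by -0.15 in DKO minus Foxo3aKO and by -0.63 in Fancd2KO minus WT, and Fbxo32 by 0.13 and -0.69. Bcl6 had opposite signs, with 0.31 where Foxo3a was lost and -0.76 where it was present, and so had Irs2, with -0.32 and 0.76. Ccng2 differed by -0.55 and -0.22. In DKO minus Foxo3aKO, 0 of 5 targets were called lower, against 6.52% of all genes, and 0 of 5 higher, against 5.83%. The departure of DKO from the sum of the single knockouts was -1.09 for Irs2, 1.07 for Bcl6, 0.82 for Fbxo32, 0.48 for Sesn3 and -0.33 for Ccng2. None of the 8 genes departed by more than 1.35, the size under which 95% of probe set disagreements about this departure fell.

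**Figure D3:**
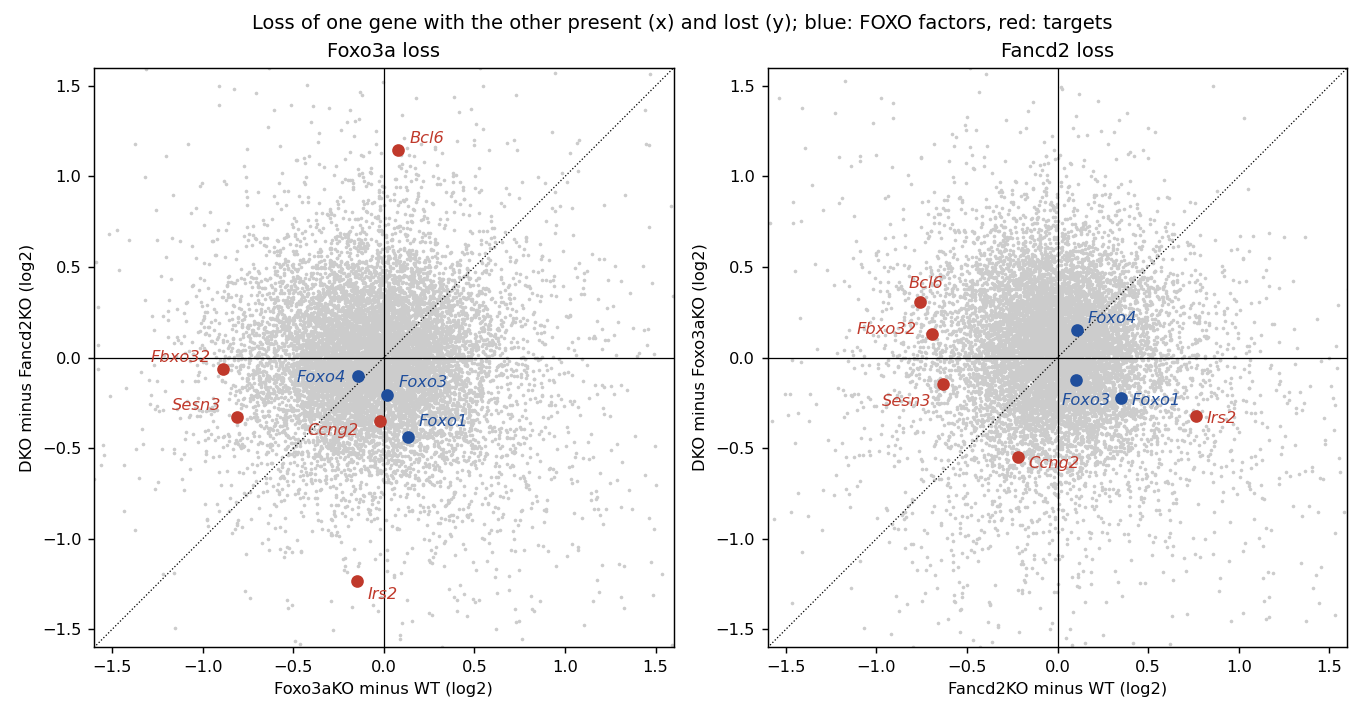
Log2 difference on loss of Foxo3a (left) or Fancd2 (right), with the other gene present on the x axis and lost on the y axis, for the 8 genes (labelled points) and all other genes above the floor (grey points; 178 and 193 genes lie outside the axes); the dotted line marks equal differences. Irs2 and Bcl6 lie far below and above the horizontal line at left, at -1.23 and 1.15, and Sesn3 and Fbxo32 lie left of the vertical line in both panels.

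Markers of other blood cells differed beside these genes, and fewer cells of a type and less RNA per cell cannot be told apart in such samples. Counts and sums of the marker lists take in every gene measured, also those under the floor. Of 16 monocyte and macrophage genes measured, 11 were lower and 5 higher than WT in Fancd2KO, 2 lower and 14 higher in Foxo3aKO, and 6 lower and 10 higher in DKO, and their summed signal was 0.74, 1.37 and 1.36 times that of WT. The defining markers of this list differed in order. Csf1r differed from WT by -0.49 in Fancd2KO, 0.33 in Foxo3aKO and 1.93 in DKO, and Adgre1 by -1.17, 0.24 and 1.76, the order of arrays seen for Bcl6. Cd14 differed by 1.04, 1.23 and 0.20, unlike Bcl6. The part of such cells in the Bcl6 values was not tested.

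Beside Sesn3 and Fbxo32, multipotent progenitor genes were lower in the knockouts. All 6 measured were below WT in Fancd2KO and in Foxo3aKO and 5 of 6 in DKO, with summed signals of 0.59, 0.47 and 0.62 times that of WT. Flt3, a cytokine receptor of these progenitors, had 7.34 log2 in Fancd2KO, 7.37 in Foxo3aKO and 6.67 in DKO, against 8.97 in WT. Cd48 differed by -0.66, -0.04 and 0.52 in the same order. Mast cell, basophil and eosinophil genes had summed signals of 0.36, 0.68 and 0.30 times WT in Fancd2KO, Foxo3aKO and DKO, with 13, 8 and 13 of 13 lower. Of the 9 above the floor, 9, 5 and 9 were lower. Epx differed by -2.71, -1.81 and -3.27, Mcpt8 by -0.94, 0.85 and -1.97, and Cpa3 by -1.13, 0.27 and -0.28. Whether either list has a part in the Sesn3 and Fbxo32 values was not tested.

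Immediate early genes, which rise within minutes of stimulation or cell handling, had summed signals of 2.07, 1.96 and 1.05 times WT in Fancd2KO, Foxo3aKO and DKO, with 31, 31 and 19 of 32 higher. Fos differed by 1.02, 1.30 and -0.11, Fosb by 1.77, 1.59 and 0.19, and Jun by 0.68, 0.95 and 0.04. Beside these, Irs2 differed from WT by 0.76, -0.15 and -0.47, and the part of immediate early genes in its values was not tested. Stem cell genes had summed signals of 0.93, 0.84 and 0.90 times WT over 13 genes, of which 5, 4 and 8 were higher than WT. A sum weighs bright genes most, and the median difference of this list in DKO was 0.12. Slamf1, which encodes the SLAM receptor CD150 of stem cells, had 8.36 log2 in Fancd2KO, 7.51 in Foxo3aKO and 7.81 in DKO, against 7.25 in WT, so it was 1.11 higher in Fancd2KO. Neutrophil genes summed to 0.83, 1.24 and 0.82 times WT, erythroid genes to 0.73, 0.72 and 1.10 times, megakaryocyte genes to 0.98, 0.56 and 0.68 times, B cell genes to 0.89, 0.67 and 0.63 times, T and NK cell genes to 1.09, 1.47 and 1.04 times, and endothelial and stromal genes to 0.998, 0.74 and 0.93 times. In some of these lists the counts went the other way from the sums. Of 8 erythroid genes, 5 were lower than WT in DKO. Of 9 endothelial and stromal genes, 6, 5 and 7 were higher in Fancd2KO, Foxo3aKO and DKO. Among the defining markers of these lists, Ly6g differed by -1.35, 0.71 and -1.79, Klf1 by -0.68, -0.45 and -0.93, and Car1 by -1.42, -1.49 and 0.60. Pf4 differed by 0.34, -0.53 and -0.15, Itga2b by 0.33, -0.42 and 0.07, and Gp9 by -0.07, -0.50 and -0.59. Cd79a differed by -0.75, -0.72 and -1.39, and Cd3d by 0.48, 2.24 and 0.99, while Ms4a1, Cd3e, Cd3g, Cdh5 and Kdr were mostly under the floor. Pecam1 differed by -0.18, -0.60 and 0.28.

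**Figure D4:**
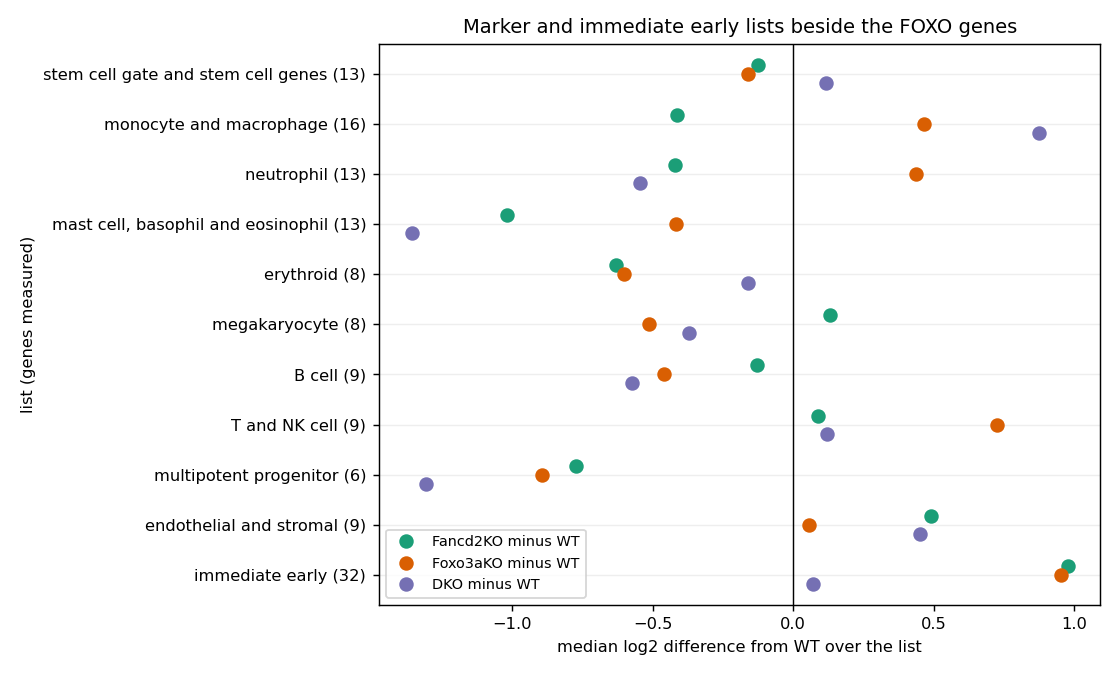
Median log2 difference from WT (x axis) over each list of marker genes and the immediate early list (y axis, number of genes measured in brackets) on the Fancd2KO, Foxo3aKO and DKO arrays. The monocyte and macrophage median is -0.41, 0.47 and 0.87 in that order, and the multipotent progenitor median is -0.77, -0.89 and -1.30. Genes under the floor are included. The endothelial and stromal median in Foxo3aKO is 0.06, and -0.27 over the 6 genes above the floor.

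Other genes known as FOXO targets were examined as a list of 62. Of these, 58 had a probe set with 1 symbol and 49 were above the floor. The list was not divided by whether FOXO proteins raise or lower a gene, so its counts and median give no direction of FOXO activity. In DKO 7 of the 49 were called lower and 1 higher, where 6.3% and 5.05% of all genes were. The list median was -0.18, against -0.03 over all genes. The lowest were Il7r, the interleukin 7 receptor, with 4.89 log2 in DKO against 6.20 in WT, and Cdkn1b, which encodes the cell cycle inhibitor p27, with 8.34 in DKO against 9.35 in WT. With the DKO signal of Il7r raised to the floor its difference was -0.69 in place of -1.31, and Il7r is also on the multipotent progenitor list. Trp53inp1 (-0.95), a stress gene shared with p53, and the mitophagy gene Bnip3 (-0.94) followed. The gene called higher was the apoptosis gene Pmaip1, at 0.84, or 0.51 with its WT signal raised to the floor. Ccnd1 (0.42), Mxi1 (0.34) and Cdkn1a (0.27) came next and were not called.

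In Foxo3aKO 7 of the 49 were called lower and 8 higher, where 7.62% and 5.85% of all genes were, with a list median of -0.16 against -0.04. Lowest were Cdkn1b (-0.89), the autophagy gene Gabarapl1 (-0.87), Txnip (-0.81), which restrains glucose uptake and thioredoxin, and the mitochondrial peroxidase gene Prdx3 (-0.67). Highest were Klf6 (1.20), Klf2 (1.07), Pmaip1 (0.99) and Cdkn1a (0.93), and Klf2 and Klf6 are also immediate early genes. With the WT signal of Pmaip1 raised to the floor its difference was 0.67.

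In Fancd2KO 2 of the 49 were called lower, Txnip (-1.02) and the glucocorticoid-induced gene Tsc22d3 (-0.63), and 5 higher, where 6.29% and 5.51% of all genes were. Il7r (-0.57) and Cdkn1b (-0.51) were next below and not called. Cdkn1a, the gene of the cell cycle inhibitor p21, had 10.22 log2 in Fancd2KO against 7.21 in WT. S1pr1 (1.47), a receptor for exit from tissues into blood, Smad7 (1.35), a TGF-beta inhibitor, and Klf6 (1.16) were also high. The list median was -0.05 against -0.01. Without the 4 genes that are also immediate early genes, 3 of 45 were called higher in Fancd2KO, or 6.67%, and 5 of 45 in Foxo3aKO, or 11.1%. Txnip was called lower in each knockout, as Sesn3 and Fbxo32 were, with 10.14 log2 in Fancd2KO, 10.35 in Foxo3aKO and 10.57 in DKO, against 11.16 in WT, a DKO difference of -0.59.

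**Figure D5:**
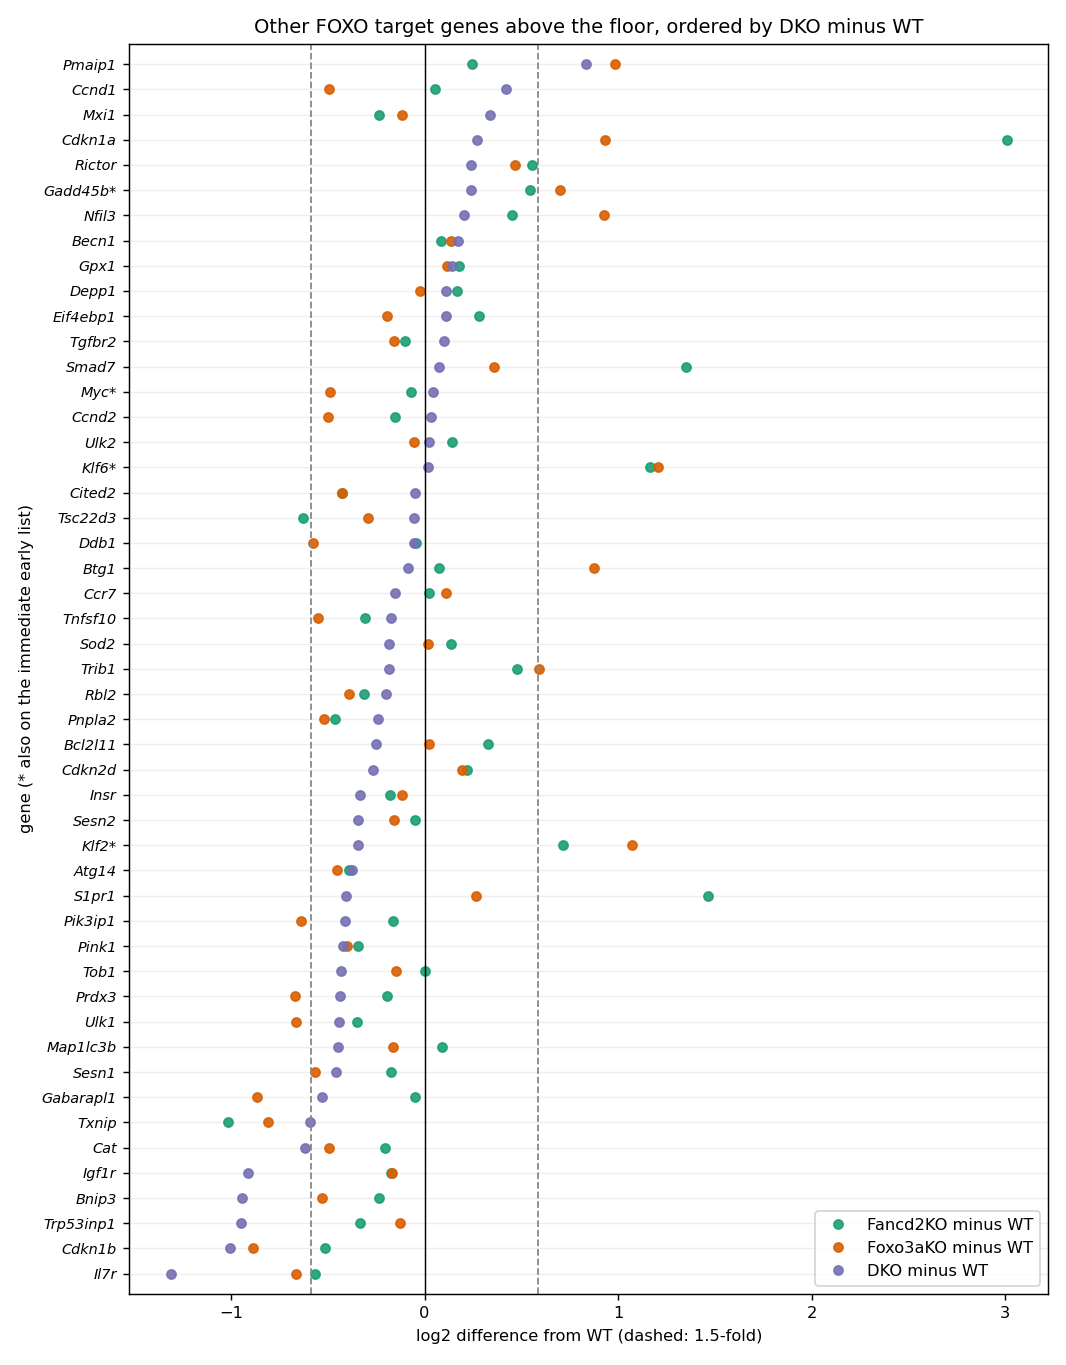
Log2 difference from WT (x axis) of the 49 other FOXO target genes above the floor (y axis, ordered by DKO minus WT) on the Fancd2KO, Foxo3aKO and DKO arrays; dashed lines mark 1.5-fold and asterisks genes that are also on the immediate early list. Il7r and Cdkn1b are lowest in DKO, at -1.31 and -1.01, and Cdkn1a stands out in Fancd2KO at 3.01.

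Fewer genes of the FOXO regulator list were called. It holds 54 genes for receptors, kinases, phosphatases, 14-3-3 proteins, modifying enzymes, partner proteins and the nuclear exporter, and also the factor gene Foxo6 (-0.03, -0.06 and 0.31), which was not among the 8 genes. Of these, 49 had a probe set with 1 symbol and all 49 were above the floor. In Fancd2KO 1 was called lower and 2 higher, in Foxo3aKO 1 lower and 2 higher, and in DKO 1 lower and 1 higher, each share below that of all genes given above. Sgk1, a kinase that like AKT phosphorylates FOXO proteins, was the regulator called higher in all 3 knockouts. It had 6.50 log2 in Fancd2KO, 6.35 in Foxo3aKO and 6.54 in DKO, against 5.30 in WT. Each knockout was above the WT array, by 1.20, 1.05 and 1.24 log2, or by 0.99, 0.85 and 1.03 with the WT signal raised to the floor, and all 4 signals lay under the G and C rich background except that of Foxo3aKO.

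The energy sensor subunit gene Prkaa2 was called higher in Fancd2KO (1.11) and Foxo3aKO (0.82), with Rictor (0.555 and 0.47) and Mdm2 (0.47 and 0.49) next in both. In DKO the subunit gene Pik3cd (0.51), the 14-3-3 gene Ywhah (0.48) and Cdk2 (0.35) followed Sgk1. Called lower were the kinase gene Stk4 in Fancd2KO (-0.62), the arginine methyltransferase gene Prmt1 in Foxo3aKO (-1.05) and the growth factor receptor gene Igf1r in DKO (-0.91). The AKT genes were not called, with Akt2 at -0.25 in Fancd2KO and -0.47 in DKO and Akt1 at -0.52 in Foxo3aKO. Next below zero were Mapk8 (-0.33) and Prkaa1 (-0.26) in Fancd2KO, Sirt3 (-0.45) and Ywhae (-0.40) in Foxo3aKO, and Mapk8 (-0.53) and Kat2b (-0.51) in DKO. Igf1r, Insr and Rictor are on both lists.

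Genes with the most similar pattern were sought for the members that spanned at least 1.5-fold over the 4 arrays, which were Sesn3, Irs2, Fbxo32 and Bcl6. Likeness was the Euclidean distance between the 4 values, each gene centred on its own mean, over 10860 genes that could be named. Nearest to Sesn3 were Dennd1c (distance 0.11 log2), Zfp566 (0.12) and Sdr39u1 (0.13). Dennd1c, for example, had 8.49 log2 in Fancd2KO, 8.39 in Foxo3aKO and 8.08 in DKO, against 9.11 in WT. Fbxo32 was most like Slc1a5 (0.04), a glutamine carrier gene, then Serinc5 (0.12) and Folr2 (0.13). Slc1a5 had 8.19 log2 in Fancd2KO, 7.95 in Foxo3aKO and 8.09 in DKO, against 8.87 in WT. Closest to Irs2 were Hbegf (0.06), a growth factor gene, Taf4b (0.10) and Lef1 (0.13), and closest to Bcl6 were Il6ra (0.12), the interleukin 6 receptor gene, Agfg2 (0.12) and Apobec1 (0.15). With 4 values per gene many genes are close to any pattern.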

How the data were processed

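RNA from 4 samples, 1 per genotype, was hybridised to 4 arrays. The deposited table holds log2 expression values of the authors. Per the submitters' processing notes they come from Affymetrix Expression Console; for its version, summarisation, normalisation, filters and build, the notes used here say nothing. Of 41345 probe sets, 23521 had 1 gene symbol in the platform annotation, 1814 had several and 16010 had no listed gene; 23328 were matched to the RefSeq gene table of GRCm38.p6 by Entrez identifier, and 0 symbols differed. The probe set with the highest mean stood for its gene, and every probe set of a member is given.

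Values were subtracted as deposited, with no pseudocount. The computation of differences and calls was checked on simulated data with known shifts, which does not measure how reliable a call is. The number of arrays limits the precision. Alternatives were quantile normalisation, median centring, cyclic loess (limma 3.58.1, R 4.3.3), the mean of all probe sets, no floor, signals raised to the floor, and a 2-fold threshold. Other steps used Python 3.11.15. From the lists of other targets and regulators, the 4 genes furthest from WT each way in each knockout were named, with the 3 genes nearest to a member and those of the first 3 genes of each marker list that had a probe set with 1 symbol. Members, lists, thresholds and rules were chosen with earlier results of these data known. Left unnamed were predicted genes, pseudogenes, clones, chemosensory receptors, small RNAs and segments of antigen receptors.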

Additional observations from a re-analysis of the deposited data

Results flagged for a closer look

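The 8 genes and the 33 other named genes of the target and regulator lists were searched for opposite differences. In 5, loss of the same gene gave differences of at least 1.5-fold in opposite directions with the other present or lost. None of the 8 was among them, and the difference between the pairs was not tested. The 33 were named for being furthest from WT in a knockout, so large differences from WT were selected for. The share of all genes with this pattern was not counted, so whether 5 is unusual is not known. For each gene, the values for Foxo3a loss and for Fancd2 loss come from the same arrays and are not separate evidence. For Cdkn1a, Foxo3a loss gave -2.74 log2 in DKO minus Fancd2KO and 0.93 in Foxo3aKO minus WT, and Fancd2 loss gave -0.66 in DKO minus Foxo3aKO and 3.01 in Fancd2KO minus WT. Klf2 gave -1.06 and 1.07 for Foxo3a loss and -1.41 and 0.72 for Fancd2 loss, in the same order. Klf6 gave -1.14 and 1.20 for Foxo3a loss and -1.19 and 1.16 for Fancd2 loss. S1pr1 gave -0.67 and 1.47 for Fancd2 loss, and Prkaa2 gave -0.80 and 0.82 for Foxo3a loss. Klf2 and Klf6 belong to the immediate early list, whose summed signal was 2.07, 1.96 and 1.05 times that of WT in Fancd2KO, Foxo3aKO and DKO.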

How the results depend on the processing

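Under 6 alternatives, the differences of the 8 genes from WT, between knockouts and from additivity gave 288 values. All 288 stayed within 1 SD of the probe set disagreement and kept the sign of each called difference. Many could not move, because the brightest probe set of each gene was above the floor on every array. Both floor alternatives thus changed none of them, and averaging probe sets could change only Foxo1. The SD is also a wide limit, and the Foxo1 departure went from -0.57 to -0.04 within it. Some differences that were not called changed sign, such as Ccng2 in Foxo3aKO, from -0.02 to 0.02 with cyclic loess. Alternatives moved the median of all genes by under 0.1 log2. The median difference of the 5 targets ran from -0.63 to -0.62 in Fancd2KO, -0.21 to -0.12 in Foxo3aKO and -0.60 to -0.51 in DKO. At 2-fold, the counts of targets called lower were 0 in Fancd2KO, 0 in Foxo3aKO and 0 in DKO, so these counts depend on the threshold. The largest drop of a target from WT was -0.96, for Sesn3 in DKO. With each array centred on its median, Ccng2 was also called lower in DKO, which made 3 of 5. The median of the 3 factor genes in Foxo3aKO changed sign, to -0.0426 under median centring and to -0.14 when probe sets of a gene were averaged, which brings in the dimmer Foxo1 probe set. The median of the regulators in Fancd2KO, -0.0005, changed sign to 0.015 with quantile normalisation, 0.008 with median centring and 0.0067 with cyclic loess. The median of the other target list kept its sign in all 3 knockouts, but without its 4 immediate early genes the count called higher was 3 in place of 5 in Fancd2KO and 5 in place of 8 in Foxo3aKO. Leaving out an array was not possible with 1 per genotype, and signals near the G and C rich background limit Fancd2, Fbxo32, Foxo3, Foxo4, Irs2 and Sgk1.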
